A study of Mus musculus with 2 samples.

Results

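The genes described here are named for the nuclear-encoded subunits of the mitochondrial respiratory chain and of ATP synthase. They were chosen by symbol, as the Nduf genes with a subunit letter (A, B, C, S or V) directly before a number, and Sdha to Sdhd. The rest were the Uqcr genes, Cyc1, the Cox genes numbered from Cox4 to Cox8, and the Atp5 genes. This rule took 87 of the 17145 rows of the deposited table, and 79 of them were measured, meaning that they had 1 FPKM or more in at least 1 library. FPKM counts the fragments of a gene for each kilobase of its transcript, relative to how deeply the library was sequenced, so levels of different genes are compared per length. The measured members were 36 of 38 rows in complex I, 4 of 4 in complex II, 9 of 9 in complex III, 13 of 16 in complex IV and 17 of 20 in ATP synthase. Ndufa4, named as a complex I subunit, was counted with complex IV, where its protein is now placed.

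The study profiled total RNA from primary mouse hepatic stellate cells, the fat-storing pericytes of the liver sinusoid, which turn into matrix-producing myofibroblasts when cultured on plastic. One library came from Adar1f/f/Cre-ER cells given 100 nM 4-hydroxytamoxifen (4-OHT), and the other from Adar1f/f/Cre-ER cells given vehicle. Both were culture-activated for 4 days in DMEM with 10% FBS. Adar1 encodes a deaminase that turns adenosine into inosine within RNA duplexes, and 4-OHT activates the Cre-ER recombinase that deletes its floxed alleles. The vehicle cells carry the same alleles without the drug, and neither library holds cells given 4-OHT without floxed Adar1, so deletion and drug cannot be told apart. The promoter that drives Cre-ER, the age and strain of the mice and the number of mice behind each library are not given in the sources used here. Adar1 itself was not analysed here, so its deletion was not checked. Each group is 1 library without replicates, so every difference compares these 2 libraries and could not be set against replicate spread.

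The respiratory chain moves electrons from NADH (through complex I) and succinate (through complex II) to ubiquinone, complex III and cytochrome c, and complex IV passes them to oxygen. Complexes I, III and IV pump protons across the inner mitochondrial membrane, and ATP synthase uses the returning protons to make ATP. Most subunits are nuclear genes, but mitochondrial DNA encodes the membrane core of complexes I, III and IV and part of ATP synthase, so each of these complexes draws on both genomes. Core subunits include those that carry the cofactors and the chemistry, and the more numerous accessory subunits surround and stabilise them.

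The FPKM values summed to 553634 in the 4-OHT library and 493531 in the vehicle library, and 12890 and 12953 genes had 1 FPKM or more. Low values of single-transcript genes fell on whole steps, so that 1 FPKM over 1 kilobase stood for 30.5 fragments with 4-OHT and 38.6 fragments with vehicle. The labelled cell type was checked against its markers. All 10 stellate cell markers were measured and all 10 were lower with 4-OHT, with summed levels of 128.3 FPKM with 4-OHT and 318.1 FPKM with vehicle. Lrat, which makes the stored retinyl esters of quiescent stellate cells, stood at 0.209 FPKM with 4-OHT and 1.36 FPKM with vehicle. All 8 macrophage markers were measured, summing to 3192 FPKM with 4-OHT and 4993 FPKM with vehicle. Of these, 5 were lower and 3 higher, and Lyz2 alone had 1353 FPKM with 4-OHT and 3050 FPKM with vehicle. All 8 endothelial markers were measured, summing to 1526 FPKM with 4-OHT and 1379 FPKM with vehicle. Here 4 were lower and 4 higher, and Egfl7 alone had 675 FPKM with 4-OHT and 421 FPKM with vehicle. The direction of either sum therefore leans on a single gene. Of 10 hepatocyte markers only Alb was measured, at 0.334 FPKM with 4-OHT and 1.41 FPKM with vehicle. Macrophage and endothelial markers were therefore abundant in both libraries, and the stellate markers were lower with 4-OHT. The part of these cell types in the results below was not tested. In bulk RNA, fewer cells of a type and a lower level of its marker genes in each cell cannot be told apart.

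Most subunit genes were lower with 4-OHT, by small amounts. Of the 79 measured members, 72 had a lower value in the 4-OHT library than in the vehicle library and 7 had a higher one, where 46.8% of all 13571 measured genes were lower. The median change, as the log2 of 4-OHT FPKM plus 1 over vehicle FPKM plus 1, was -0.32 for the members, with quartiles of -0.57 and -0.15, and 0.03 for all measured genes, with quartiles of -0.25 and 0.30. Summed over the members, the levels were 5233 FPKM with 4-OHT and 6863 FPKM with vehicle, a ratio of 76.3%. This sum was 0.945% of all FPKM with 4-OHT and 1.39% with vehicle. Since the library sums differ, setting them equal moved the median of all genes to -0.11 and that of the members to -0.48, and left 2 members above 0.

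**Figure D1:**
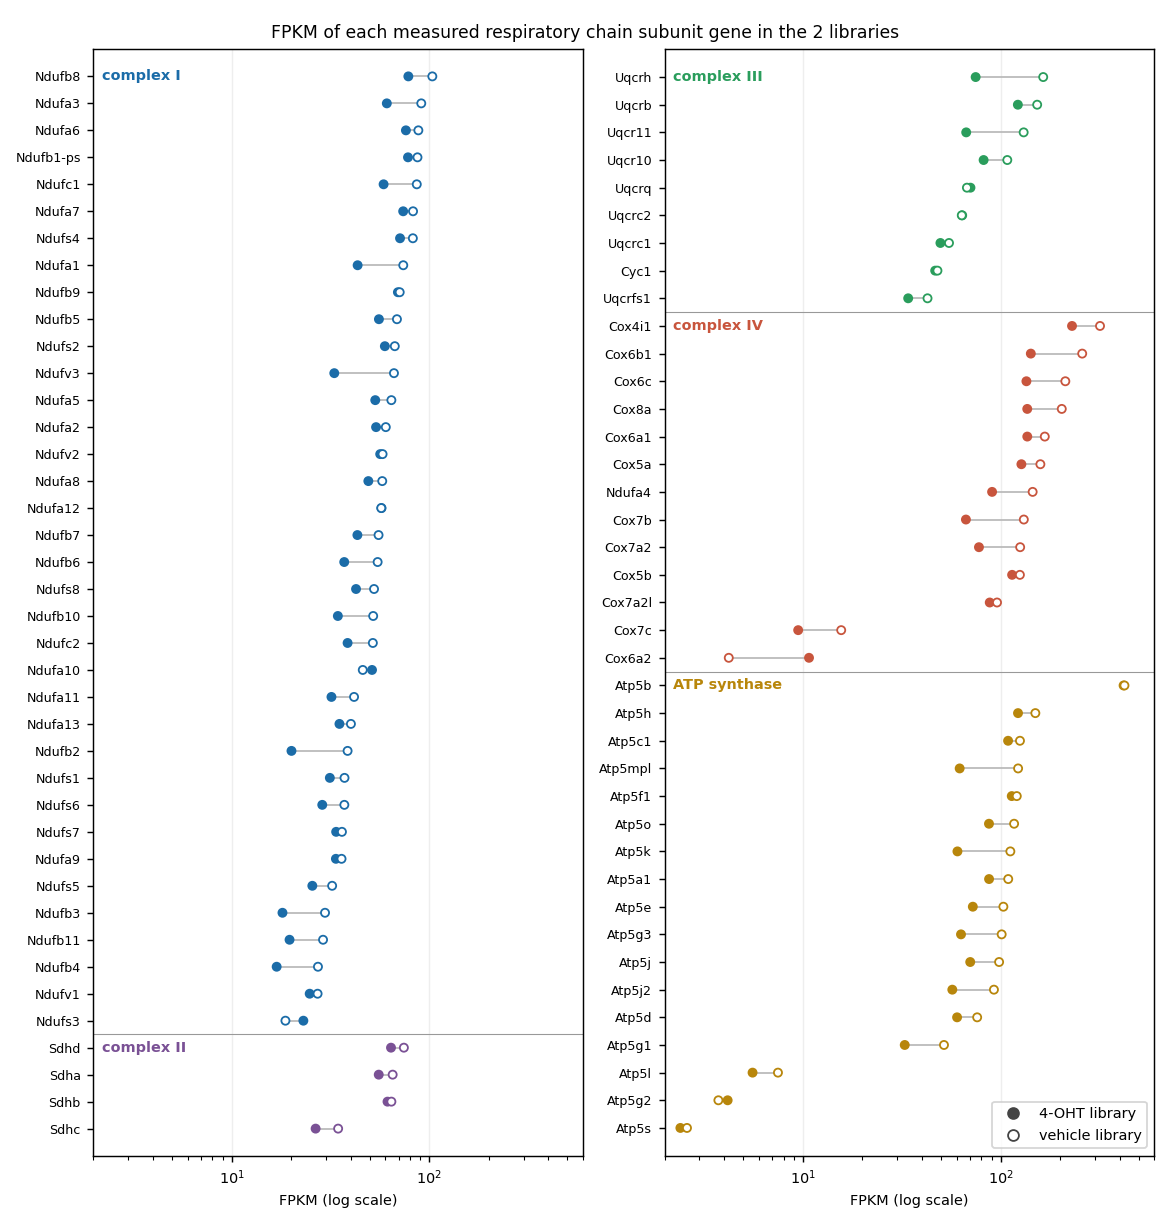
FPKM (horizontal axis, log scale) of the 79 measured subunit genes, with 1 filled point for the 4-OHT library and 1 open point for the vehicle library per gene, grouped by complex and ordered by vehicle FPKM. The filled point lies to the left of the open one in 72 genes and to the right in 7, of which Cox6a2 has the widest gap.

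Few members changed by much. At 2-fold, 1 member was lower, where 3.49% of all measured genes were, and 1 was higher, where 5.78% were. At 1.5-fold, 18 of 79 members were lower and 1 was higher, where 10.2% of all measured genes were lower and 11.7% were higher. The authors' deposited table gives 7 measured members a p-value under 0.05 and a lower 4-OHT value, where 4.82% of all genes have this. The authors' deposited table lists 0.003 for Uqcrh, 0.0147 for Uqcr11, 0.0149 for Cox7b, 0.0199 for Atp5mpl, 0.0269 for Cox6b1, 0.0301 for Ndufv3 and 0.0376 for Atp5k. No member had a q-value under 0.05 in the authors' deposited table, where 0.877% of all genes were lower at that threshold, and the lowest was 0.128, for Uqcrh. The sources used here do not say how that test estimated the spread from 1 library per group.

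The 18 members at least 1.5-fold lower did not include any core subunit of complexes I to III or subunit of the catalytic F1 head of ATP synthase. All 18 were accessory subunits, small membrane subunits of ATP synthase or members of its c ring. These classes were written after the values were seen, with the c ring counted apart from the core. The split therefore only describes these values. The median change of the 20 core and F1 head members was -0.18, and that of the 51 accessory and small membrane members was -0.39. The 2 classes differ in transcript length, with a median of 1571.5 bases for core and F1 head genes and 680 bases for the others, and the part of length in this difference was not tested. Cox6a2 was the 1 accessory gene at least 1.5-fold higher.

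The promoters of these genes are shown for 3 members that were among the lowest and 1 core member that was nearly level. Nuclear respiratory genes are known for promoters bound by NRF1, by ETS factors such as GABP (also called NRF2) and by YY1. The windows run 5′ to 3′ on the gene's strand, from 250 bases before to 50 bases after the RefSeq start on GRCm38.p6, and capitals mark matches to the NRF1, ETS and YY1 motifs on either strand. They belong to Uqcrh (chr4:116075021-116075320, minus strand), Uqcr11 (chr10:80406772-80407071, minus strand), Atp5k (chr5:108434350-108434649, minus strand) and Uqcrc1 (chr9:108936398-108936697, plus strand).
Uqcrh: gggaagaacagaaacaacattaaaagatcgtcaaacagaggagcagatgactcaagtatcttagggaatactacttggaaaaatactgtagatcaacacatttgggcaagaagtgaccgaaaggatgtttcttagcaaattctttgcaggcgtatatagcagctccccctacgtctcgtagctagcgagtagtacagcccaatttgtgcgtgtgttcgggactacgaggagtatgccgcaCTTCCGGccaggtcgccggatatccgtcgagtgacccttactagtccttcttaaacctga
Uqcr11: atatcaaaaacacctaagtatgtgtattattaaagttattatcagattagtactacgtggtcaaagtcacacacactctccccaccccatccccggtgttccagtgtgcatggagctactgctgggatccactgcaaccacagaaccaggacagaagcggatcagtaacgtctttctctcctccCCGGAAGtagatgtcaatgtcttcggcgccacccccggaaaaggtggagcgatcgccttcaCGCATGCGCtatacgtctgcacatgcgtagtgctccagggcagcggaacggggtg
Atp5k: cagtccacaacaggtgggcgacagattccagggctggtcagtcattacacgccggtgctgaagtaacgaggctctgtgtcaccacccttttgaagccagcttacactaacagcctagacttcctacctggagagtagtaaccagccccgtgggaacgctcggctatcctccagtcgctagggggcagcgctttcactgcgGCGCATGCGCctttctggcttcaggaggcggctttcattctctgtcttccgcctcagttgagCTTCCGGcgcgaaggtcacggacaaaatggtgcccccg
Uqcrc1: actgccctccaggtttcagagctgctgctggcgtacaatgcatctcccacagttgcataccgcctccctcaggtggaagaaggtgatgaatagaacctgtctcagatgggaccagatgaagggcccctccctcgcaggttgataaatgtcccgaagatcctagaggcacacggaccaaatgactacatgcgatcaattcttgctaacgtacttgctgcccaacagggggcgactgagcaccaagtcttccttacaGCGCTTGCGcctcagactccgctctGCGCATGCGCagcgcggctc

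The motifs searched were GCGCNTGCG for NRF1, CCGGAAG for ETS factors and AAGATGGC for YY1, each on both strands. In Uqcrh an ETS match began 10 bases before the start. In Uqcr11 an NRF1 match began 5 bases and an ETS match 66 bases before it, and in Atp5k an NRF1 match began 50 bases before it and an ETS match 12 bases after it. In Uqcrc1 NRF1 matches began 5 and 30 bases after it. Where the NRF1 letters read almost the same on both strands, overlapping matches were counted as 1. An NRF1 match was thus present in Uqcr11 and Atp5k, which were lower, and in Uqcrc1, which was nearly level. Every window shown holds a match, but this was not so for all of the lowest members. The windows of Ndufv3 (-0.98), Cox7b (-0.96) and Ndufb2 (-0.91) held no NRF1, ETS or YY1 match.

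Of the 79 measured members, 65 had a window in the RefSeq table, 70 windows in all. The NRF1 motif was in 24 of the 70 windows, or 34.3%, and in 6.30% of all 32817 windows. The ETS motif was in 16 windows, or 22.9%, against 8.86% of all windows, and the YY1 motif in 10 windows, or 14.3%, against 2.74%. The TATA letters TATAAA were in 6 windows, or 8.57%, against 13.6%. They were searched over the whole window, and the match closest to the start began at -52 from it, in Ndufa7. Overlapping windows of Ndufa7 share this match, and each was counted. At least 1 of NRF1, ETS and YY1 was in 7 of the 16 windows of members at least 1.5-fold lower (43.8%) and in 35 of the 54 windows of the other members (64.8%), against 16% of all windows. The median share of G and C bases in the member windows was 58.5%, and the set of all windows was not matched to them in this share. A match is a description of letters, not of binding.

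**Figure D2:**
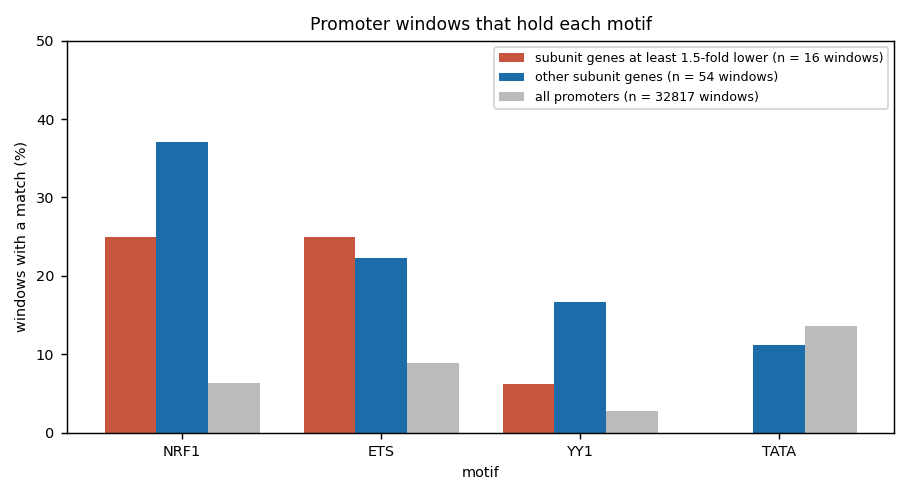
Share of promoter windows (vertical axis, percent) that hold each motif, for subunit genes at least 1.5-fold lower (16 windows), the other subunit genes (54 windows) and all windows of the RefSeq table (32817). NRF1 letters stand in 25% and 37% of the subunit windows and in 6.30% of all windows, and TATA letters in no window of the lower subunit genes.

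The genes of the factors that read these motifs were looked at within a wider list of regulators. That list also holds factors that act on mitochondrial DNA or RNA, so its counts are not those of the motif readers. Of 13 measured regulators of mitochondrial transcription and biogenesis, 11 were higher and 2 lower, with a median change of 0.26, and 8 were above 0 with equal library sums. Their median longest transcript was 4042 bases, beside 1046 bases for the measured subunit genes, and the part of length was not tested. Nrf1 had 16.3 FPKM with 4-OHT and 12.7 FPKM with vehicle. Gabpa, the ETS subunit of GABP, had 19.5 FPKM with 4-OHT and 20.5 FPKM with vehicle. Yy1 had 30.4 FPKM with 4-OHT and 25.1 FPKM with vehicle. All 3 were therefore within 1.5-fold. The highest change was that of Tfb1m, a methyltransferase of mitochondrial ribosomal RNA, at 0.71, and the lowest that of Tfb2m, a mitochondrial transcription initiation factor, at -0.36. Tfam, which packages and transcribes mitochondrial DNA, had 21.4 FPKM with 4-OHT and 16.6 FPKM with vehicle.

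Complex I takes electrons from NADH through a matrix arm and pumps protons through a membrane arm. Of its 36 measured genes, 33 were lower with 4-OHT, 5 of them by at least 1.5-fold, with a median change of -0.28. Summed levels were 1619 FPKM with 4-OHT and 2010 FPKM with vehicle. The 7 core genes had a median change of -0.13 and the 29 accessory genes one of -0.35. None of the 36 reached 2-fold.

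Ndufv3, an accessory subunit at the NADH-oxidising tip of the matrix arm, had 33.1 FPKM with 4-OHT and 66.3 FPKM with vehicle, a change of -0.98. Ndufb2, an accessory subunit of the membrane arm, had 20.1 FPKM with 4-OHT and 38.6 FPKM with vehicle (-0.91). Ndufa1, a small membrane subunit needed to assemble the complex, had 43.4 FPKM with 4-OHT and 73.9 FPKM with vehicle (-0.75). These were the lowest of the complex, and they lie in both of its arms. Ndufb3 had 18.1 FPKM with 4-OHT and 29.7 FPKM with vehicle (-0.69). Ndufb4 had 16.9 FPKM with 4-OHT and 27.3 FPKM with vehicle (-0.66). Both are accessory subunits of the distal membrane arm. Ndufb3 has 1 annotated transcript, so its fragments could be recovered, 327 with 4-OHT and 672 with vehicle. Their ratio per unit of depth was 0.609, with an exact 95% interval of 0.532 to 0.697 that covers counting error only.

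The core subunits of the matrix arm, among them those that hold the flavin and the iron-sulfur clusters, moved less. Ndufs3 had 23.1 FPKM with 4-OHT and 18.7 FPKM with vehicle, the highest change of the complex at 0.29. Ndufv1, which binds NADH and the flavin, had 24.8 FPKM with 4-OHT and 27.2 FPKM with vehicle (-0.13). Ndufs1, the largest subunit, had 31.4 FPKM with 4-OHT and 37.3 FPKM with vehicle (-0.24). Ndufs8, the lowest of the core genes, had 42.6 FPKM with 4-OHT and 52.5 FPKM with vehicle (-0.30). These core genes were all within 1.5-fold. Among accessory subunits, Ndufa10 had 51.3 FPKM with 4-OHT and 46.1 FPKM with vehicle (0.15). Ndufa12, a subunit of the matrix arm, had 57.3 FPKM with 4-OHT and 57.1 FPKM with vehicle (0.00). With equal library sums, Ndufs3 stayed above 0 and Ndufa10 and Ndufa12 did not. The most abundant gene of the complex was Ndufb8, an accessory subunit of the membrane arm, at 78.4 FPKM with 4-OHT and 104 FPKM with vehicle (-0.40).

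Complex II is succinate dehydrogenase, which is also an enzyme of the citric acid cycle and has no subunit from mitochondrial DNA. All 4 of its genes were slightly lower with 4-OHT, none by 1.5-fold, with a median change of -0.22. Sdha, the flavoprotein that oxidises succinate, had 55.5 FPKM with 4-OHT and 65.3 FPKM with vehicle (-0.23). Sdhb, the iron-sulfur subunit, had 61.5 FPKM with 4-OHT and 64.3 FPKM with vehicle (-0.06). These form the matrix part of the enzyme. Of the membrane anchors that bind ubiquinone, Sdhc had 26.6 FPKM with 4-OHT and 34.6 FPKM with vehicle (-0.37). The other anchor, Sdhd, had 64.0 FPKM with 4-OHT and 74.4 FPKM with vehicle (-0.21). For Sdhd, 2072 fragments with 4-OHT and 3026 with vehicle gave a ratio of 0.861, with an exact 95% interval of 0.814 to 0.911 for counting error only.

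Complex III, the cytochrome bc1 complex, held both the lowest member and several that were level. Of its 9 genes, 7 were lower with 4-OHT, 2 of them by at least 1.5-fold, with a median change of -0.32. The 4 core genes, with the core proteins Uqcrc1 and Uqcrc2 counted among them, had a median of -0.09. The 5 accessory genes had one of -0.39. Summed levels were 611 FPKM with 4-OHT and 833 FPKM with vehicle.

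Uqcrh, the acidic hinge protein beside cytochrome c1, had 74.8 FPKM with 4-OHT and 164 FPKM with vehicle, a change of -1.12. It was the 1 member at least 2-fold lower. Uqcr11, the smallest subunit, had 67.0 FPKM with 4-OHT and 131 FPKM with vehicle (-0.95). Uqcr10, a small subunit next to cytochrome c1, had 82.1 FPKM with 4-OHT and 108 FPKM with vehicle (-0.39). Uqcrb, an accessory subunit, had the highest sum over both libraries, at 122 FPKM with 4-OHT and 153 FPKM with vehicle (-0.32). Uqcrq, another accessory subunit, had 70.4 FPKM with 4-OHT and 67.6 FPKM with vehicle (0.06, and below 0 with equal library sums), so the accessory genes of this complex did not all go one way.

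The core subunits differed among themselves. Cyc1, cytochrome c1 itself, had 46.7 FPKM with 4-OHT and 47.9 FPKM with vehicle (-0.04). Uqcrfs1, the Rieske iron-sulfur protein, had 34.1 FPKM with 4-OHT and 42.7 FPKM with vehicle (-0.32), and its recovered fragments gave a ratio of 0.798 with an exact 95% interval of 0.743 to 0.858 for counting error only. Of the core proteins that face the matrix, Uqcrc1 had 49.6 FPKM with 4-OHT and 54.9 FPKM with vehicle (-0.14). The other, Uqcrc2, had 64.0 FPKM with 4-OHT and 63.7 FPKM with vehicle (0.01, and below 0 with equal library sums).

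Complex IV, cytochrome c oxidase, had the lowest median change of the complexes, at -0.58. Its catalytic core comes from mitochondrial DNA, so its 13 measured nuclear genes are all accessory. Of these, 12 were lower with 4-OHT, 6 of them by at least 1.5-fold, and 1 was higher. Summed levels were 1366 FPKM with 4-OHT and 1963 FPKM with vehicle, a ratio of 69.6%. By the mean, complex IV at -0.403 was almost the same as ATP synthase at -0.401.

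The lowest was Cox7b, a small membrane subunit, at 66.8 FPKM with 4-OHT and 131 FPKM with vehicle (-0.96). Cox6b1, which lies on the intermembrane side and joins the monomers of the dimer, had 142 FPKM with 4-OHT and 259 FPKM with vehicle (-0.86). Cox7a2 had 77.8 FPKM with 4-OHT and 126 FPKM with vehicle (-0.69). Cox7a2 is the isoform of the VIIa subunit found in most tissues. Cox7c had 9.47 FPKM with 4-OHT and 15.6 FPKM with vehicle (-0.67). Cox6c had 135 FPKM with 4-OHT and 213 FPKM with vehicle (-0.65). Both are small subunits with a single membrane span. Near-identical pseudogenes complicate Cox7c, since 3 of them in the table summed to 12.5 FPKM with 4-OHT and 13.7 FPKM with vehicle, more than Cox7c in the 4-OHT library.

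The most abundant complex IV gene was Cox4i1, a subunit through which ATP regulates the enzyme, at 230 FPKM with 4-OHT and 318 FPKM with vehicle (-0.47). Cox8a, the form of the small subunit VIII found in most tissues, had 136 FPKM with 4-OHT and 204 FPKM with vehicle (-0.58). Of the genes that were lower, the least changed was Cox7a2l, which joins complexes III and IV into supercomplexes, at 88.2 FPKM with 4-OHT and 96.0 FPKM with vehicle (-0.12). Cox5b, a zinc-binding matrix subunit, was next to it, at 114 FPKM with 4-OHT and 125 FPKM with vehicle (-0.13). The abundant genes of the complex thus ranged from nearly level to 1.5-fold lower or more.

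The forms of the VIa subunit went different ways. Cox6a1, the form of the VIa subunit found in most tissues, had 137 FPKM with 4-OHT and 167 FPKM with vehicle (-0.29). Cox6a2, its heart and skeletal muscle form, had 10.7 FPKM with 4-OHT and 4.22 FPKM with vehicle, a change of 1.17 and the 1 member at least 2-fold higher. Cox6a1 remained the more abundant form in both libraries. Cox6a2 has 1 annotated transcript, and its 167 fragments with 4-OHT and 82 with vehicle gave a ratio of 2.55, with an exact 95% interval of 1.94 to 3.36 for counting error only. It lies within Itgad on the opposite strand, and the strand setting of the counting is not given in the sources used here, so reads of the pair may not be told apart. Itgad, an integrin subunit of macrophages, had 1.46 FPKM with 4-OHT and 2.57 FPKM with vehicle, and so went the other way. The muscle form Cox7a1 and the testis form Cox6b2 were under 1 FPKM in both libraries and, like Cox7a2 and Cox6b1, lower with 4-OHT. Cox4i2, Cox8b and Cox8c were not among the 16 complex IV rows that the rule took.

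Ndufa4 and its relative also went opposite ways. Ndufa4 had 90.6 FPKM with 4-OHT and 145 FPKM with vehicle (-0.68). AA467197 is the mouse gene of NMES1, a small protein that in inflammation takes the place of NDUFA4 in complex IV, and falls outside the symbol rule. It had 14.9 FPKM with 4-OHT and 6.27 FPKM with vehicle (1.13). Ndufa4 was the more abundant of the pair in both libraries.

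**Figure D3:**
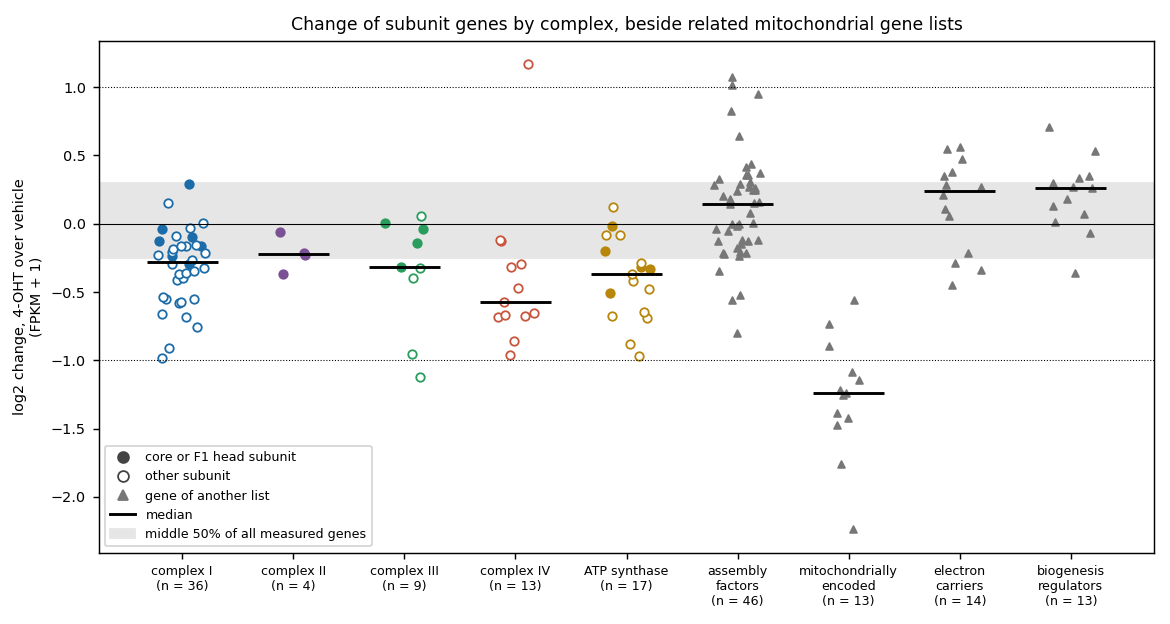
Log2 change, 4-OHT over vehicle on FPKM plus 1 (vertical axis), of each measured subunit gene by complex and of each measured gene in 4 related lists, with black bars at the medians and the grey band over the middle 50% of all measured genes. Medians of the 5 complexes lie between -0.58 and -0.22, that of the mitochondrially encoded subunits at -1.24 and that of the assembly factors at 0.15.

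ATP synthase consists of a catalytic F1 head, a rotor with a ring of c subunits, a peripheral stalk and small membrane subunits that shape its dimers. Of its 17 measured genes, 16 were lower with 4-OHT, 5 of them by at least 1.5-fold, with a median change of -0.37. Medians by part were -0.32 for the 5 F1 head genes, -0.35 for the 4 stalk genes, -0.64 for the 3 c ring genes and -0.78 for the 4 small membrane genes.

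Atp5b, the catalytic beta subunit, was the most abundant of all 79 members and was level, at 419 FPKM with 4-OHT and 423 FPKM with vehicle (-0.01). Its partner Atp5a1, the alpha subunit, had 87.5 FPKM with 4-OHT and 109 FPKM with vehicle (-0.32). Atp5e, the small epsilon subunit of the central stalk, had the lowest change of the head at 72.4 FPKM with 4-OHT and 103 FPKM with vehicle (-0.51). The other head genes were Atp5c1, the gamma subunit at the centre of the rotor, with a change of -0.20, and Atp5d, the delta subunit, with one of -0.33. No head gene reached 1.5-fold.

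The small membrane subunits were lowest. Atp5mpl, a short proteolipid of the membrane part, had 62.1 FPKM with 4-OHT and 123 FPKM with vehicle (-0.97). Atp5k, subunit e, which holds the monomers of the dimer together, had 60.5 FPKM with 4-OHT and 112 FPKM with vehicle (-0.88). Atp5j2, subunit f, had 57.0 FPKM with 4-OHT and 92.6 FPKM with vehicle (-0.69). Atp5l, subunit g, partner of subunit e, stood apart by its level, 5.57 FPKM with 4-OHT and 7.48 FPKM with vehicle (-0.37). It has 10 near-identical pseudogenes, and the 5 in the table summed to 4.65 FPKM with 4-OHT and 2.82 FPKM with vehicle, so its level is uncertain. Usmg5, a small membrane subunit that the symbol rule leaves out, had 90.1 FPKM with 4-OHT and 157 FPKM with vehicle (-0.80).

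The c subunit is made from 3 genes whose mature proteins are the same. Atp5g3 had 63.1 FPKM with 4-OHT and 101 FPKM with vehicle (-0.67). Atp5g1 had 32.8 FPKM with 4-OHT and 51.7 FPKM with vehicle (-0.64). Atp5g2 was the least abundant, at 4.16 FPKM with 4-OHT and 3.74 FPKM with vehicle (0.12, and -0.01 with equal library sums). Together the 3 genes had 100 FPKM with 4-OHT and 157 FPKM with vehicle, a ratio of 63.8%. Atp5s, a coupling factor that is not a subunit, was the lowest expressed measured member, at 2.40 FPKM with 4-OHT and 2.59 FPKM with vehicle (-0.08). The inhibitor of the enzyme, named Atpif1 in the table and outside the symbol rule, had 113 FPKM with 4-OHT and 184 FPKM with vehicle (-0.69).

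The 8 rows not measured were minor isoforms, a second row with the name of a measured gene, and copies. Cox6b2 had 0.259 FPKM with 4-OHT and 0.715 FPKM with vehicle. Cox7a1 had 0.442 FPKM with 4-OHT and 0.956 FPKM with vehicle. A second row named Atp5o had 0.245 FPKM with 4-OHT and 0.326 FPKM with vehicle. The other 5 are annotated as processed pseudogenes, which are inserted copies of a spliced transcript. Among these, Cox6c2 was listed at 0 with 4-OHT and had 0.844 FPKM with vehicle. Ndufa11b had 0.517 FPKM with 4-OHT and was listed at 0 with vehicle. Ndufs6b had 0.369 FPKM with 4-OHT and 0.151 FPKM with vehicle. The remaining pair are copies of Atp5l. Atp5l-ps1 had 0.231 FPKM with 4-OHT and 0.569 FPKM with vehicle. Atp5l2-ps had 0.693 FPKM with 4-OHT and 0.190 FPKM with vehicle. Ndufb1-ps is a measured member in spite of its name, at 78.0 FPKM with 4-OHT and 87.1 FPKM with vehicle (-0.16). The annotation gives it a non-coding type, and RefSeq names it Ndufb1, an accessory subunit of complex I. Of the 79 measured members, 25 have at least 1 pseudogene that is 95% identical over 150 bases or more. Their median change was -0.39, and that of the 54 without one was -0.29.

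The other genes of the pathway were taken as lists. All 13 mitochondrially encoded subunits were lower with 4-OHT, 10 of them by at least 2-fold, with a median change of -1.24. The lowest was mt-Cytb, the cytochrome b of complex III, at 194 FPKM with 4-OHT and 920 FPKM with vehicle (-2.24). The highest was mt-Nd6 of complex I, at 82.0 FPKM with 4-OHT and 121 FPKM with vehicle (-0.56). Subunits of both genomes were thus mostly lower in the same library, and the mitochondrial ones had the lower median. Levels within the mitochondrial list differed widely. While mt-Co1 had 2519 FPKM with 4-OHT and 4185 FPKM with vehicle, mt-Co2 had 7.85 and 19.9 FPKM, mt-Atp6 2.57 and 6.88 FPKM, and mt-Nd3 0.185 and 3.01 FPKM. Why these levels differ was not tested, so the changes of the low ones are uncertain.

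Assembly factors help to build the complexes without remaining in them. Of 46 measured assembly factors, 19 were lower and 27 higher with 4-OHT, with a median change of 0.15 that became -0.01 with equal library sums. At 2-fold, 2 were higher and 0 lower. Cox18, which inserts a complex IV subunit into the membrane, had 18.7 FPKM with 4-OHT and 8.37 FPKM with vehicle (1.07). Sco1, a copper chaperone of complex IV, had 14.3 FPKM with 4-OHT and 6.54 FPKM with vehicle (1.02). The lowest was Pet100, also of complex IV, at 16.5 FPKM with 4-OHT and 29.5 FPKM with vehicle (-0.80). In complex IV, 14 of 20 assembly factors were higher (11 with equal library sums), while 12 of 13 nuclear subunits were lower. The median longest transcript was 1387 bases for these assembly factors and 765 bases for these subunits, and the part of length in this difference was not tested. The median change of complex I assembly factors was 0.10, or -0.05 with equal library sums, with Foxred1 highest at 0.82 and Ndufaf2 lowest at -0.35.

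The mobile carriers of electrons were also not lower as a group. Of 14 measured genes for cytochrome c and ubiquinone synthesis, 10 were higher, with a median change of 0.24, and 8 were above 0 with equal library sums. Their median longest transcript was 2727.5 bases, beside 1046 bases for the measured subunit genes, and the part of length was not tested. Cycs, cytochrome c, had 7.02 FPKM with 4-OHT and 5.30 FPKM with vehicle. The highest change was 0.56, for Coq2, which joins the ring and tail of ubiquinone, and the lowest was -0.45, for Coq10a. Of 12 genes of mitochondrial import and the outer membrane, 7 were higher and 5 lower, which turned to 5 higher and 7 lower with equal library sums, and changes ran from -0.36 for Vdac1 to 0.28 for Vdac3, both metabolite channels of the outer membrane. All 4 carriers of the inner membrane were lower, with a median change of -0.62. Slc25a4, an exchanger of ADP and ATP, was lowest, at 39.5 FPKM with 4-OHT and 78.4 FPKM with vehicle (-0.97), and Slc25a3, the phosphate carrier, was highest at -0.22.

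Change varied with transcript length. Subunit transcripts are short, with a median of 863 bases for the principal transcript of the 78 protein-coding members and 3002 bases for all measured protein-coding genes. They were set beside other protein-coding genes with a mean of 20 FPKM or more in the same range of length. Under 600 bases, all 17 members were lower with 4-OHT, with a median change of -0.39, and 86.4% of 59 other genes were lower, with a median of -0.44. In this range the median of the members was not below that of other short abundant genes.

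From 600 to below 900 bases, the median was -0.42 for 24 members and -0.22 for 177 other genes. From 900 to below 1500 bases, it was -0.25 for 18 members and -0.02 for 492 other genes. At 1500 bases or more, it was -0.14 for 19 members, of which 16 were lower, and 0.12 for 3467 other genes, of which 37.3% were lower. Over the members, Spearman's rho of change and length was 0.42 (n = 78), and over the other genes it was 0.15 (n = 4195). Genes are not replicates, and all of these points share the 2 libraries. The 91 measured cytosolic ribosomal protein genes, also short and abundant, had a median change of -0.21, and 74 of them were lower. How much of the members' difference goes with length in library preparation or scaling was not tested.

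**Figure D4:**
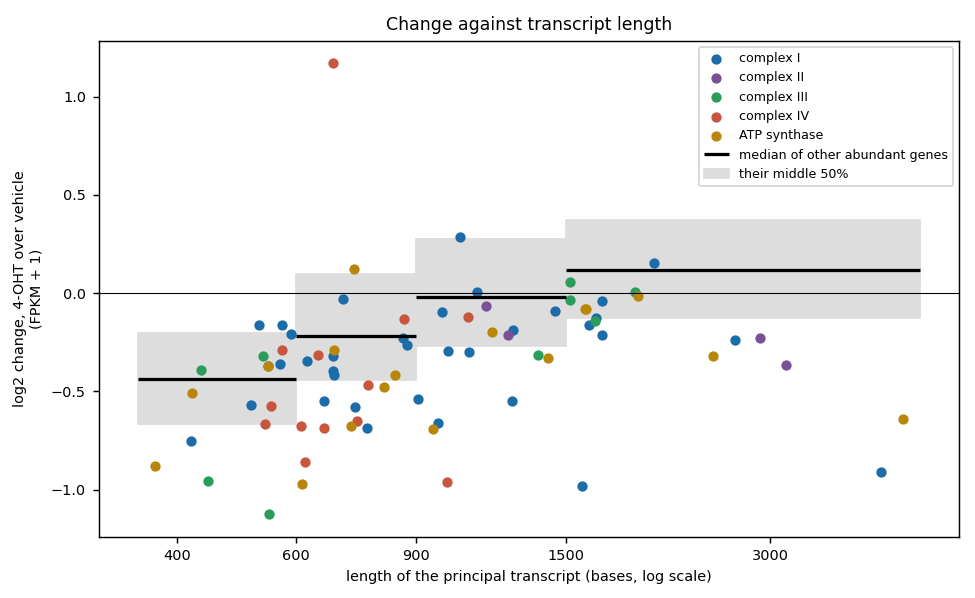
Log2 change, 4-OHT over vehicle on FPKM plus 1 (vertical axis), of 78 subunit genes against the length of the principal transcript (horizontal axis, log scale), with black bars at the medians and grey bands over the middle 50% of other protein-coding genes of 20 FPKM or more in 4 ranges of length, the longest of which is open-ended. Members under 600 bases have a median of -0.39, beside -0.44 for other genes of that range, and in the 3 longer ranges their medians of -0.42, -0.25 and -0.14 lie below those of the other genes.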

How the data were processed

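RNA-seq of 2 libraries, 1 per group, was taken from the authors' deposited table, in which each gene has an FPKM value for either library, per the file headers. The submitters' processing notes name STAR, Cufflinks and GRCm38, with no version and no role. Neither the strand setting nor the scaling between libraries is given in the sources used here. Besides FPKM, the authors deposited a log2 fold change, a p-value and a q-value for each gene. The deposited log2 values matched those computed here from FPKM plus a pseudocount of 1, which understates the change of low genes. No test was made, since 1 library per group leaves no spread between replicates.

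Gene coordinates, types and transcript lengths came from GENCODE M21 on GRCm38, and promoters from RefSeq on GRCm38.p6. Near-identical pseudogenes were found with BLAST 2.17.0+ (95% identity over 150 bases). Genes with 1 FPKM or more in either library were counted as measured. Whole fragments were recovered from FPKM of genes with 1 transcript longer than 600 bases, after taking 171 bases (4-OHT) and 176 bases (vehicle) off its length: 99.0% of 518 and 97.3% of 401 low values lay within 0.1 of a whole number, against 20% by chance. Ratios of 2 such counts have exact conditional binomial intervals, which cover counting error only, since duplicates from PCR are counted as molecules. The recovery was tested on simulated data. Python 3.11.15, pandas 2.3.3, NumPy 2.4.6, SciPy 1.17.1 and matplotlib 3.10.9 were used.

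The members and lists were chosen with earlier results of these data known, and the classes of core and accessory subunits were written after values were seen. Named members were the 3 highest, 3 lowest and most abundant of each complex, all at 1.5-fold or more, isoform groups, the Sdh genes, the ATP synthase inhibitor, members not measured, and the extremes of each list; the others named were chosen after their values were seen.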

Additional observations from a re-analysis of the deposited data

How the results depend on the processing

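All 6 medians stayed below 0 under every alternative run. That of all measured members lay between -0.48 and -0.29, and that of complex III between -0.48 and -0.14. With equal library sums the medians were -0.48 for all members, -0.44 for complex I, -0.38 for complex II and -0.74 for complex IV, by construction a shift of about -0.17, and 8 members were at least 2-fold lower. The count of members at least 2-fold lower, 1 as reported, was 2 with a pseudocount of 0.1, 3 after centring on the median of all genes and 18 at a threshold of 1.5-fold. The count at least 2-fold higher became 0 with a pseudocount of 5. Members with a lower 4-OHT value numbered 72 with either other pseudocount, as had to be, since a pseudocount cannot alter the sign of a change. They numbered 77 of 79 with equal sums and 74 after centring. These counts, and a version with Ndufa4 in complex I (median -0.30, and -0.52 for complex IV), were added after seeing the data. No paired analysis was possible because each group has 1 library, and no library could be left out. A difference cannot be set against replicate spread, and members with several transcripts have no counting interval.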

Other observations

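The cell type marker lists behind the check of the label had these extremes. Among stellate cell markers, Acta2, the smooth muscle actin of myofibroblasts, had 8.87 FPKM with 4-OHT and 86.8 FPKM with vehicle (-3.15), and Hgf, a growth factor for hepatocytes, had 24.8 FPKM with 4-OHT and 31.3 FPKM with vehicle (-0.33). The median of the 10 was -1.19. Among 8 macrophage markers, with a median of -0.13, the change ran from -1.20 for Vsig4 to 0.48 for Clec4f, both markers of resident liver macrophages. Among 8 endothelial markers, with a median of -0.02, it ran from -1.22 for Clec4g, a marker of sinusoidal endothelium, to 0.68 for Egfl7. Among the 3 measured lymphocyte markers it ran from 0.50 for Ptprc to 0.97 for Cd3e. Cd3e, a subunit of the T cell receptor complex, had 2.39 FPKM with 4-OHT and 0.725 FPKM with vehicle. Among the 4 measured mesothelial markers it ran from -1.28 for Upk3b to -0.25 for Krt18, all under 2 FPKM. Of cholangiocyte markers Spp1 was at -1.43 and Krt19 at -0.59, and of neutrophil markers S100a8 was at -0.81.

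The small factors Higd1a and Higd2a, which associate with respiratory supercomplexes, were lower with 4-OHT. Higd1a had 6.26 FPKM with 4-OHT and 10.8 FPKM with vehicle (-0.70), and Higd2a had 30.6 FPKM with 4-OHT and 48.5 FPKM with vehicle (-0.65). Ndufab1, the acyl carrier protein that is also a complex I subunit and that the symbol rule leaves out, had 30.7 FPKM with 4-OHT and 33.4 FPKM with vehicle (-0.12). Among the assembly factors of the other complexes, Sdhaf4 of complex II was at -0.52 and Sdhaf2 at 0.36, Uqcc3 of complex III was at -0.24 and Uqcc1 at 0.33, and Tmem70 of ATP synthase was at 0.00 and Atpaf2 at 0.25.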
